A study of Homo sapiens with 4 samples.

Results

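AKR1C1, AKR1C2 and AKR1C3, 3 neighbouring genes for NADPH-dependent aldo-keto reductases that reduce ketosteroids, prostaglandins and lipid aldehydes, were examined together with 7 other classical targets of the transcription factor NRF2: NQO1, HMOX1, GCLM, GCLC, TXNRD1, SRXN1 and OSGIN1. These 10 genes were taken by symbol from a deposited table of 64252 gene rows, and all 10 were among the 19767 genes with enough counts to be tested. They were selected on the p-value of AKR1C1 in this contrast, which ranked 5th among the genes higher after IGF2BP3 knockdown, and on their place among the known NRF2 targets. The values of the 10 genes are therefore a description and carry no test of their own.

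The libraries came from SK-N-BE(2), an established human neuroblastoma line with amplified MYCN, and the study addressed how IGF2BP3, a protein that binds N6-methyladenosine-marked mRNA, affects neuroblastoma through the stability of E2F2 mRNA. There were 2 libraries of cells with a short hairpin RNA against IGF2BP3 (shIGF2BP3) and 2 with a control hairpin (shControl). No drug, dose or time point was named, and the labels do not say how many hairpin sequences were used, how they were delivered or whether the 2 libraries of a group came from separate cultures. The p-values below therefore reflect only how much these libraries vary, and that variation may be technical. Each library held 26755695 to 31946756 counts, so that 3 counts, taken here as the detection floor, correspond to 0.0958 to 0.1114 CPM (counts scaled to library size). The scaling used the trimmed mean of M-values (TMM), which corrects for differences in RNA composition between libraries, and every level below is in CPM of this kind unless given per length.

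NRF2, encoded by NFE2L2, is held in the cytoplasm by KEAP1, which presents it to a CUL3 ubiquitin ligase for destruction. Electrophiles and oxidants modify cysteines of KEAP1, NRF2 then accumulates, pairs with a small MAF protein and binds antioxidant response elements (ARE) near its target genes. BACH1 competes for the same elements and represses some of the targets, HMOX1 above all. The products of the pathway make glutathione, reduce thioredoxin and peroxiredoxins, detoxify quinones and carbonyls, supply NADPH and handle haem and iron.

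The targeted gene matched the labels. IGF2BP3 (ENSG00000136231, chr7:23310209-23470467, minus strand) stood at 147.7 ± 12.5 CPM in the controls (SD, n = 2) and at 30.3 ± 2.26 CPM after knockdown (SD, n = 2), a log2 fold change of -2.28 with SE 0.09. Its p, adjusted over all genes by the Benjamini-Hochberg method after the quasi-likelihood test of edgeR, was 1.65e-12. All coordinates of genes are those of GENCODE 29 on GRCh38, the assembly that hg38 names.

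The DNA just upstream of the AKR1C genes is printed because AKR1C1 and AKR1C2 had the 2 largest fold changes of the 10 genes and almost the same upstream sequence. The 250 bases before the RefSeq start sites (GRCh38.p14) are given 5′ to 3′ on the strand of the gene, for AKR1C1 from chr10:4963165-4963414 (plus strand), for AKR1C2 from chr10:5003858-5004107 (minus strand) and for the more downstream of 2 AKR1C3 starts from chr10:5094164-5094413 (plus strand). No base is in capitals, since neither motif searched below occurred in them.
AKR1C1: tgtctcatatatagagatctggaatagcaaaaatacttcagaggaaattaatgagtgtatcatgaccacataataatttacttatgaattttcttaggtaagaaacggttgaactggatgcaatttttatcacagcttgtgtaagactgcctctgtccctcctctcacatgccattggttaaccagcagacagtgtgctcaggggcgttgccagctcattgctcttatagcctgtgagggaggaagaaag
AKR1C2: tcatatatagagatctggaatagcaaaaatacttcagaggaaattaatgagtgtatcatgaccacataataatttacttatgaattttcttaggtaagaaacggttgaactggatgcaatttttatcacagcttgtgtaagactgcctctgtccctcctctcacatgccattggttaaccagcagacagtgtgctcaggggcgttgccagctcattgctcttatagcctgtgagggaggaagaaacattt
AKR1C3: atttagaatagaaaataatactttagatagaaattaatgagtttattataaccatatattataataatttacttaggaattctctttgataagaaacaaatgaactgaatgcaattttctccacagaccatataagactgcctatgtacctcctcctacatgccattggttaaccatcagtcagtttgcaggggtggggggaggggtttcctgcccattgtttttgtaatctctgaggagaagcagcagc
AKR1C1 and AKR1C2 shared a run of 245 identical bases in this stretch, which aligned at 99.59% identity. The AKR1C1 stretch was 76.76% and 78.63% identical to the upstream stretches of the 2 AKR1C3 starts. The AKR1C genes also stood apart from the other targets in base composition: their 4 windows of 300 bases (250 before and 50 after the start) held 33.67% to 41.33% G and C, against 53.67% to 80.0% in the 7 windows of the other matched genes and a median of 58.67% over all windows.

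The same windows were searched on both strands for the ARE core TGACNNNGC and the AP-1 site TGANTCA. A window of RefSeq was found for 9 of the 10 genes, 11 windows in all. HMOX1 was not matched. The ARE core occurred in 3 of the 11 windows, 1 of GCLM and both of TXNRD1, and in 13.3% of the 35116 windows of all genes. The AP-1 site occurred only in the OSGIN1 window among the 11, and in 7.71% of all windows. The 2 motifs overlapped nowhere in the 11 windows. The upstream stretches that hold these matches are printed with the match in capitals, for GCLM from chr1:93909431-93909680 (minus strand), for the upstream TXNRD1 start from chr12:104215529-104215778 and the downstream one from chr12:104286782-104287031 (both plus strand) and for OSGIN1 from chr16:83952990-83953239 (plus strand). The upstream TXNRD1 stretch holds a match on the strand of the gene and a second one on the opposite strand. The second match runs past the last base before the start site, where the printed stretch ends, so its capitals are incomplete. The matches of GCLM and of the downstream TXNRD1 start lie on the opposite strand, and those on the opposite strand read in reverse complement.
GCLM: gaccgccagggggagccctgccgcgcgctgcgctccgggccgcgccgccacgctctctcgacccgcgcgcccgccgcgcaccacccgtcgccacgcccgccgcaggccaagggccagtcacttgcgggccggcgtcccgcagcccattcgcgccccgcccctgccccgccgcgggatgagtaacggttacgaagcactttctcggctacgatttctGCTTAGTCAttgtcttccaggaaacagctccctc
TXNRD1, upstream start: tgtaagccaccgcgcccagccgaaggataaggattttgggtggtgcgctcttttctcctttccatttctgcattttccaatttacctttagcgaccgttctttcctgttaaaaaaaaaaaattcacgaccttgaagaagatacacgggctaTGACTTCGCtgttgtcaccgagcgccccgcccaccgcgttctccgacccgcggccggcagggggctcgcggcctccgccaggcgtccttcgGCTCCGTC
TXNRD1, downstream start: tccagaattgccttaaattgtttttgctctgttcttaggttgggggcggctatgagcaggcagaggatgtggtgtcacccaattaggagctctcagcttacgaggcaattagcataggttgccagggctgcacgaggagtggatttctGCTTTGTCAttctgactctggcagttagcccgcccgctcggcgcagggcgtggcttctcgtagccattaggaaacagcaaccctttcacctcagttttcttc
OSGIN1: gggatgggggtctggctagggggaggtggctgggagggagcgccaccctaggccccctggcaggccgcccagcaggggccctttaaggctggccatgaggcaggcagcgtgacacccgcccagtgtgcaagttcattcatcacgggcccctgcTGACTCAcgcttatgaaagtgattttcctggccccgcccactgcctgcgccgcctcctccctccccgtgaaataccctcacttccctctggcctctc
The matches began 34 bases (GCLM), 99 and 8 bases (upstream TXNRD1 start), 102 bases (downstream TXNRD1 start) and 97 bases (OSGIN1) before the start site. A match describes the letters of a window and is not a measured binding site. Sequence outside these windows was not searched, so a gene without a match here may still hold the element further away.

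Across the group, the AKR1C genes and OSGIN1 were several-fold higher in the shIGF2BP3 libraries, HMOX1 was moderately higher, NQO1, GCLC and SRXN1 differed little, and GCLM and TXNRD1 were lower. In the fit over all genes, 7 of the 10 passed an adjusted p of 0.05, beside 51.5% of all tested genes. Of these, 5 were higher (AKR1C1, AKR1C2, AKR1C3, HMOX1 and OSGIN1), beside 25.9% of all tested genes, and 2 were lower (GCLM and TXNRD1), beside 25.6%. The 2 groups of libraries did not overlap for 9 of the 10, GCLC being the exception, beside 74.5% of all tested genes. The median log2 fold change of the 10 was 0.42, beside 0.0094 over all tested genes.

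**Figure D1:**
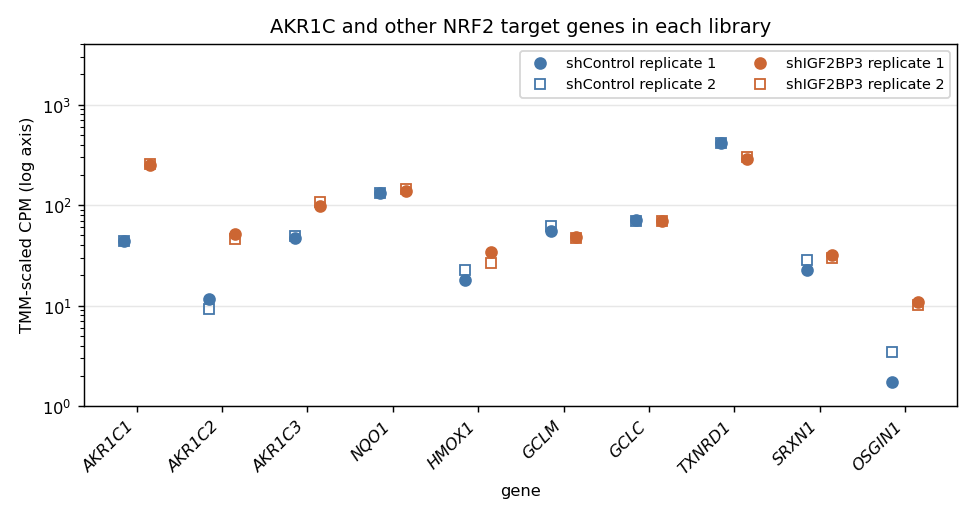
TMM-scaled CPM (log axis) of the 10 genes in each of the 4 libraries, with filled symbols for replicate 1 and open symbols for replicate 2. AKR1C1 sits near 43 CPM in both shControl libraries and above 250 CPM in both shIGF2BP3 libraries, GCLC lies at one level in all 4, and TXNRD1 lies lower in shIGF2BP3.

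AKR1C1 (ENSG00000187134, chr10:4963253-4983283, plus strand) encodes the family member best known for inactivating progesterone. Its counts were 1174 and 1358 in the shControl libraries and 7162 and 7037 in the shIGF2BP3 libraries, or 43.6 and 43.4 CPM against 252.8 and 256.5 CPM. The spread within each group was a small part of the distance between them. The mean went from 43.5 ± 0.153 to 254.6 ± 2.61 CPM (SD, n = 2 each), a log2 fold change of 2.55 (SE 0.07).

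AKR1C2 (ENSG00000151632, chr10:4987400-5018031, minus strand), which inactivates dihydrotestosterone and binds bile acids, was the least abundant of the 3 at 11.7 and 9.20 CPM in shControl and 51.9 and 46.0 CPM in shIGF2BP3. Both knockdown libraries lay far above both controls, and the log2 fold change was 2.24 (SE 0.13). AKR1C3 (ENSG00000196139, chr10:5035354-5107686, plus strand), which makes testosterone from androstenedione and also acts on prostaglandins, stood at 47.2 and 49.6 CPM in shControl and 98.8 and 108.3 CPM in shIGF2BP3. Its groups were equally well separated but closer together, with a log2 fold change of 1.10 (SE 0.08).

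The balance among the 3 genes shifted toward AKR1C1. AKR1C1 supplied 42.6% and 42.4% of the counts of the 3 genes in shControl and 62.7% and 62.4% in shIGF2BP3. The share of AKR1C3 moved the other way, from 46.0% and 48.6% to 24.5% and 26.4%, while that of AKR1C2 was 11.4% and 9.0% in shControl and 12.9% and 11.2% in shIGF2BP3. In counts, AKR1C1 was 0.924 and 0.874 times AKR1C3 in the controls and 2.56 and 2.37 times AKR1C3 after knockdown. These are shares of counts, which depend on transcript length as well as on the number of molecules. Summed, the 3 genes stood at 102.4 and 102.2 CPM in shControl and 403.4 and 410.8 CPM in shIGF2BP3, and a fit on the summed row gave a log2 fold change of 1.99 (SE 0.07), or 3.98-fold.

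**Figure D2:**
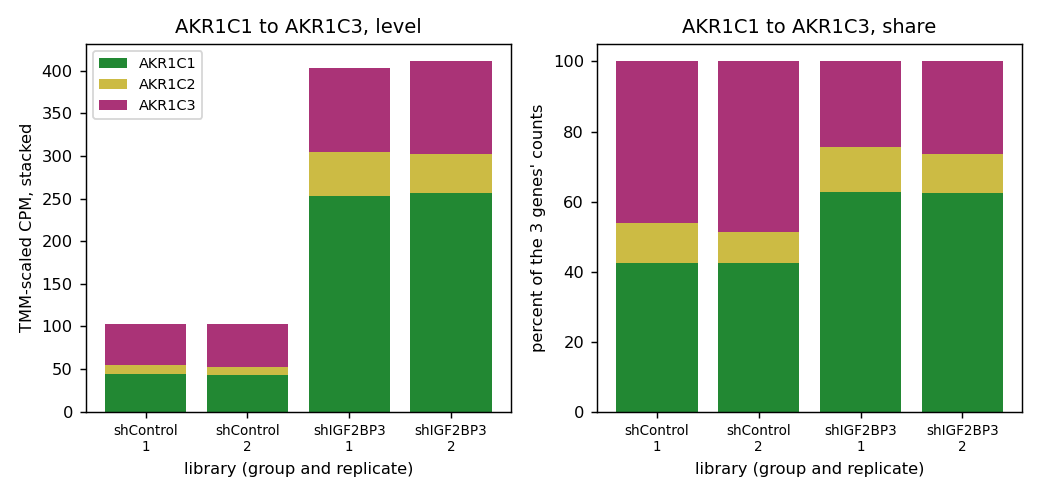
Stacked TMM-scaled CPM (left) and percent of the counts of the 3 genes (right) for AKR1C1, AKR1C2 and AKR1C3 in each library, replicates 1 and 2 of shControl and shIGF2BP3. The stacks stand at about 102 CPM in both controls and above 403 CPM in both knockdown libraries, where AKR1C1 takes over 62% of the counts.

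The division of reads between the AKR1C genes is less certain than their sum. In the principal GENCODE 29 transcripts, the coding sequences of AKR1C1 and AKR1C2, 972 bases each, were 98.05% identical and differed at 19 bases, with a longest shared run of 189 bases. AKR1C1 and AKR1C3 were 91.46% identical, and AKR1C2 and AKR1C3 were 91.05% identical. A stretch of 100 bases from the AKR1C1 coding sequence occurred unchanged in that of AKR1C2 at 167 of 873 positions (19.13%) and in that of AKR1C3 at 19 (2.18%). These figures cover coding bases only. The principal transcripts are 6705 (AKR1C1), 3756 (AKR1C2) and 1807 (AKR1C3) bases long, and their untranslated parts were not compared. How the deposited counts treated reads that match more than 1 gene is not given in the sources used here, so a read from a shared stretch may have been counted for the wrong gene. Among the neighbours on chromosome 10, AKR1E2 (chr10:4786629-4848062), an aldo-keto reductase of the same superfamily, had 5.13 ± 0.836 CPM in shControl and 5.05 ± 0.494 CPM in shIGF2BP3 (log2 fold change -0.01, SE 0.24, adjusted p = 0.979, edgeR). AKR1C4 (chr10:5195462-5218949), the liver member of the family, had 0 and 1 counts in shControl and 4 and 10 in shIGF2BP3, too few to be tested.

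Of the quinone and haem enzymes, NQO1 was nearly level and HMOX1 was higher. NQO1 (ENSG00000181019, chr16:69706996-69726951, minus strand), which reduces quinones by a pair of electrons and is a standard readout of NRF2, stood at 131.3 and 131.6 CPM in shControl and 138.9 and 144.6 CPM in shIGF2BP3. The groups did not overlap, but the log2 fold change was 0.11 (SE 0.07). HMOX1 (ENSG00000100292, chr22:35380361-35394214, plus strand), which opens haem to biliverdin, stood at 18.0 and 22.6 CPM in shControl and 33.9 and 26.4 CPM in shIGF2BP3. Here the spread within each group was large beside the gap between the highest control and the lowest knockdown library, and the log2 fold change was 0.56 (SE 0.14). It was 0.37 without shIGF2BP3 replicate 1, where HMOX1 no longer passed the threshold, and 0.73 without shIGF2BP3 replicate 2.

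The 2 subunits of glutamate-cysteine ligase, the enzyme that limits glutathione synthesis, were not raised. The catalytic subunit gene GCLC (ENSG00000001084, chr6:53497341-53616970, minus strand) stood at 70.2 and 69.6 CPM in shControl and 69.5 and 69.9 CPM in shIGF2BP3. The 4 values lay within 1 CPM of each other and the groups overlapped (log2 fold change -0.0043, SE 0.08). The modifier subunit gene GCLM (ENSG00000023909, chr1:93885205-93909456, minus strand), which makes the ligase more efficient, stood at 55.0 and 61.3 CPM in shControl and 47.8 and 47.4 CPM in shIGF2BP3. Both knockdown libraries were below both controls, with a log2 fold change of -0.29 (SE 0.09), and the gene passed the threshold in 7 of 12 alternative analyses.

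On the thioredoxin side of the pathway, TXNRD1 was lower and SRXN1 did not pass the threshold. TXNRD1 (ENSG00000198431, chr12:104215779-104350305, plus strand), the cytosolic selenoenzyme that reduces thioredoxin, was the most abundant of the 10 at 415.5 and 413.7 CPM in shControl and stood at 287.1 and 299.4 CPM in shIGF2BP3. Its groups were clearly apart, and the log2 fold change was -0.50 (SE 0.06). SRXN1 (ENSG00000271303, chr20:646615-653370, minus strand), sulfiredoxin, which repairs over-oxidised peroxiredoxins, stood at 22.3 and 28.3 CPM in shControl and 31.9 and 29.7 CPM in shIGF2BP3. The higher control nearly reached the lower knockdown library, and the log2 fold change was 0.28 (SE 0.12). It was 0.12 without shControl replicate 1 and 0.45 without shControl replicate 2.

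OSGIN1 (ENSG00000140961, chr16:83948282-83966332, plus strand), an oxidative stress-induced growth inhibitor, had the lowest level of the 10 and a fold change between those of AKR1C2 and AKR1C3. Its counts were 47 and 107 in shControl and 307 and 279 in shIGF2BP3, or 1.75 and 3.42 CPM against 10.8 and 10.2 CPM. The knockdown libraries were close to each other and well above both controls, which differed (2.58 ± 1.18 CPM). The log2 fold change of 1.99 (SE 0.25) was 1.62 without shControl replicate 1 and 2.57 without shControl replicate 2. The level in shControl replicate 1 was 51.1% of that in shControl replicate 2 for OSGIN1, 78.9% for SRXN1, 79.8% for HMOX1 and 89.8% for GCLM. It was 95% to 101% for AKR1C1, AKR1C3, NQO1, GCLC and TXNRD1, and 127% for AKR1C2, which went the other way.

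**Figure D3:**
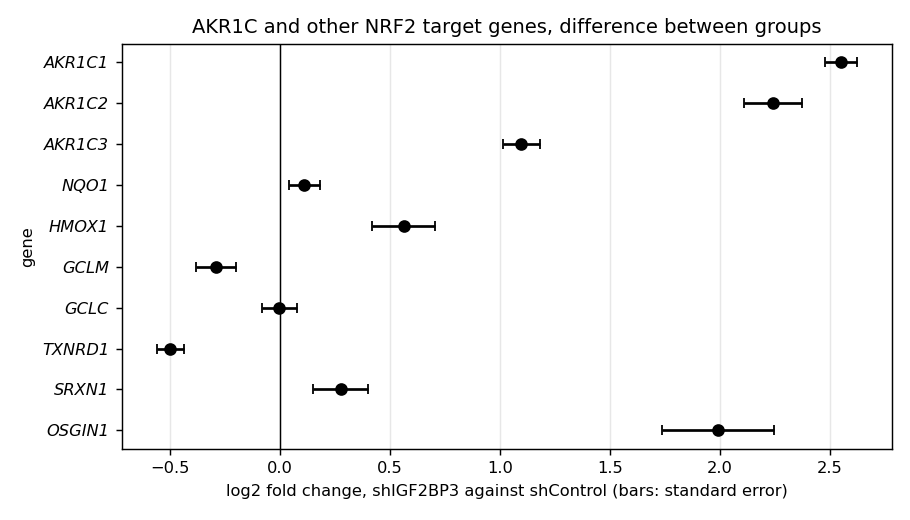
Log2 fold change of each of the 10 genes, shIGF2BP3 against shControl, with its standard error from the fit over all genes; the vertical line marks no difference. AKR1C1, AKR1C2, OSGIN1 and AKR1C3 lie above 1, NQO1, HMOX1, GCLC and SRXN1 lie between -0.0043 and 0.56, and GCLM and TXNRD1 lie at -0.29 and -0.50.

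Levels of different genes were compared per length, as CPM per kilobase of the principal transcript. TXNRD1 came first in both groups, at 105.5 ± 0.323 in shControl and 74.6 ± 2.2 in shIGF2BP3 (SD, n = 2 each). NQO1 followed in shControl at 45.1 and AKR1C3 at 26.8. In shIGF2BP3, AKR1C3 stood at 57.3 and NQO1 at 48.7 by this length. GCLC stood at 18.3 in both groups, GCLM at 12.0 and then 9.81, HMOX1 at 11.2 and then 16.6, and SRXN1 at 9.38 and then 11.4. HMOX1 overlapped GCLM and SRXN1 in the shControl libraries and GCLC in the shIGF2BP3 libraries, so these neighbours were not separated. AKR1C1 moved from rank 8 in shControl, at 6.49, to rank 4 in shIGF2BP3, at 38.0. Its principal transcript is 6705 bases long with 972 coding, so this place depends on the length used. AKR1C2 went from 2.78 to 13.0, and OSGIN1 came last in both groups at 1.16 and 4.71. With the length of all annotated exons in place of the principal transcript, the order of NQO1 and AKR1C3 was not reversed: NQO1 stood at 40.4 and AKR1C3 at 10.7 in shControl, and at 43.6 and 22.9 in shIGF2BP3. TXNRD1 was then at 61.8 in shControl and, at 43.7, level with NQO1 in shIGF2BP3, while OSGIN1 was last in both groups. The order of AKR1C3 and NQO1 in shIGF2BP3 thus depended on the length chosen.

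The genes whose profile over the 4 libraries was closest to that of AKR1C1 were taken by the Euclidean distance of centred log2(CPM + 0.5) values. Distances were computed for 14625 genes, and those without a symbol were left out before the nearest were taken. GALNT10, an enzyme that starts O-linked glycosylation, was nearest at a distance of 0.0662 and went from 6.0 ± 0.188 to 36.1 ± 0.793 CPM. SCRT2, a neuronal zinc-finger repressor, followed at 0.0773 with 11.7 ± 0.391 and 72.6 ± 1.47 CPM. MINAR1 came next at 0.1016 with 3.39 ± 0.044 and 23.0 ± 1.05 CPM. With 2 libraries a group, such likeness rests mainly on the size of a single difference.

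The genes that control NRF2 were mostly higher or did not pass the test. Of 16 regulators, all tested, 7 rose and 1 fell, while 8 did not pass (43.8% higher and 6.25% lower, beside 25.9% and 25.6% of all tested genes). Their median log2 fold change was 0.23, beside 0.0094 over all genes. NFE2L2, which encodes NRF2 itself, stood at 145.4 and 137.2 CPM in shControl and 226.9 and 225.6 CPM in shIGF2BP3, a rise of 0.68 in log2 (SE 0.07, adjusted p = 1.53e-07, edgeR). Its negative regulator KEAP1 rose as well, from 71.3 ± 2.79 to 104.7 ± 7.36 CPM (log2 fold change 0.55, SE 0.08, adjusted p = 1.66e-05, edgeR). BACH1, the repressor that competes for the same elements, rose from 35.5 ± 0.902 to 65.8 ± 4.31 CPM (log2 fold change 0.89, SE 0.09, adjusted p = 2.89e-07, edgeR). SQSTM1, the autophagy receptor p62 that can draw KEAP1 away from NRF2 and is itself a target, rose most in this list, from 136.0 ± 18.8 to 340.3 ± 5.95 CPM (log2 fold change 1.32, SE 0.08, adjusted p = 1.43e-09, edgeR). Activator and repressors thus rose together at the level of mRNA. BACH2, a relative of BACH1, rose by 1.03 in log2 (SE 0.14, adjusted p = 5.72e-06, edgeR), and the ubiquitin ligase subunit RBX1, the member that fell, changed by -0.35 (SE 0.09, adjusted p = 0.00258, edgeR). CUL3 (log2 fold change -0.11) and the small MAF genes MAFG (-0.08) and MAFK (0.19) did not pass, and the call on MAFF (0.47, adjusted p = 0.048, edgeR) was lost in 6 alternative analyses, as given under the processing.

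Beyond the 10 genes, a list of 37 further NRF2 targets held 31 with enough counts to be tested, of which 19 rose, 7 fell and 5 did not pass (median log2 fold change 0.41). The share that rose was 61.3%, beside 25.9% of all tested genes, and the share that fell was 22.6%, beside 25.6%. The rises included ABCC3, an efflux pump for glutathione and glucuronide conjugates, which went from 8.82 ± 1.35 to 55.7 ± 1.15 CPM (log2 fold change 2.65, SE 0.13, adjusted p = 1.12e-11, edgeR), beside 2.55 for AKR1C1. FTL, the ferritin light chain, rose from 644.1 ± 12.9 to 1063 ± 54.2 CPM (log2 fold change 0.72, SE 0.06, adjusted p = 1.96e-08, edgeR). The falls included TKT, transketolase of the pentose phosphate pathway, from 352.9 ± 25.4 to 172.8 ± 14.2 CPM (log2 fold change -1.03, SE 0.07, adjusted p = 2.56e-09, edgeR). PRDX1, the peroxiredoxin that thioredoxin reduces, fell from 261.4 ± 10.3 to 143.8 ± 4.56 CPM (log2 fold change -0.86, SE 0.07, adjusted p = 7.60e-09, edgeR).

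Several targets of the list were named after their values were seen. The conjugate pump ABCC2 (log2 fold change 1.85), the lipase ABHD4 (2.07), the epoxide hydrolase EPHX1 (1.09), the malic enzyme ME1 (0.84), the cystine transporter gene SLC7A11 (0.75) and the ferritin heavy chain gene FTH1 (0.36) were higher. TXN, thioredoxin itself, was lower (-0.65), as were PGD (-0.51), GSTM3 (-0.46), TALDO1 (-0.30) and PIR (-0.28). PGD and TALDO1, like TKT, encode enzymes of the pentose phosphate pathway. MGST1, a membrane glutathione transferase, had 7 and 0 counts in shControl and 61 and 83 in shIGF2BP3 and passed the edgeR test (adjusted p = 3.08e-05) but not that of DESeq2. AKR1B10, an aldo-keto reductase strongly driven by NRF2 in epithelial tumours, had 0 counts in every library, which allows at most 0.1114 CPM.

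**Figure D4:**
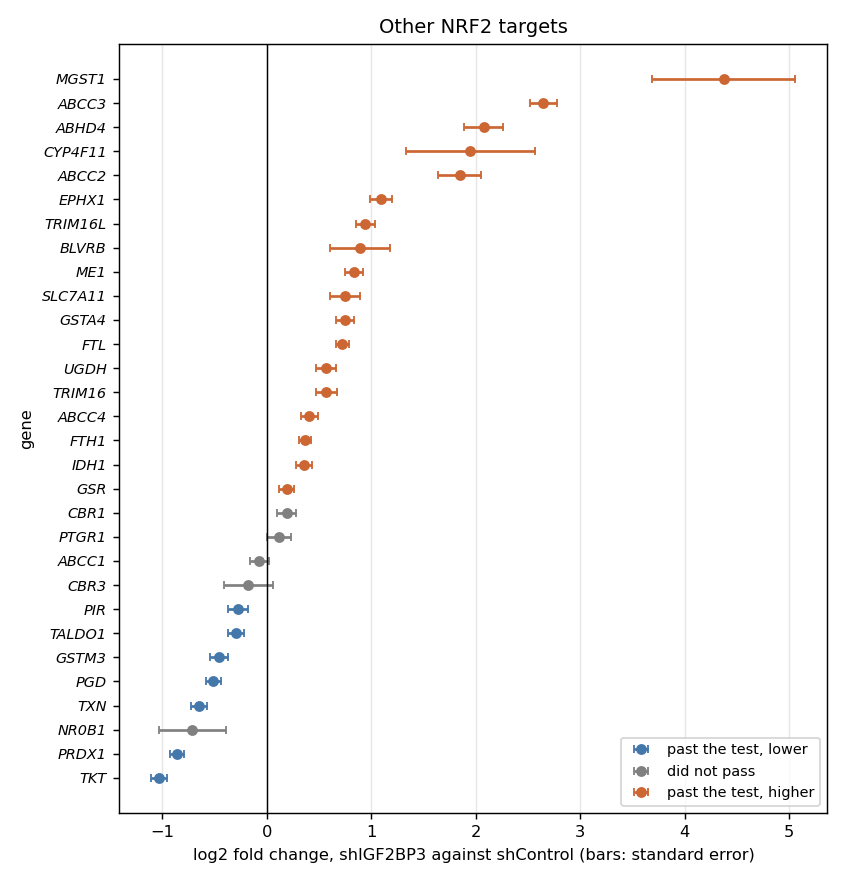
Log2 fold change with its standard error for 30 of the 31 tested genes of the further NRF2 target list, coloured by whether each passed the test in edgeR and in which direction. The range runs from TKT at -1.03 to ABCC3 at 2.65 and MGST1 at 4.38, with 18 of the plotted genes higher, 7 lower and 5 that did not pass.

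The enzyme systems that the targets feed into held genes of both directions, as did the whole set of tested genes. The lists overlap in part and leave out the 10 genes themselves. Together with the regulators and the further targets they held 179 genes, 155 of them tested, with 60 higher (38.7%, beside 25.9% of all tested genes), 50 lower (32.3%, beside 25.6%) and 45 that did not pass. Among 30 tested glutathione enzymes, 11 rose (36.7%), 7 fell (23.3%) and 12 did not pass (median -0.02), and the count of rises was 7 without shIGF2BP3 replicate 1, 7 without shIGF2BP3 replicate 2 and 7 with DESeq2. GSTP1, the main glutathione transferase of many tumours, fell from 584.5 ± 3.29 to 257.9 ± 16.8 CPM (log2 fold change -1.18, adjusted p = 7.27e-11, edgeR), and GLRX5, a mitochondrial glutaredoxin for iron-sulfur clusters, fell from 56.1 ± 3.14 to 8.43 ± 0.950 CPM (-2.73, adjusted p = 8.63e-12). GLO1, glyoxalase, fell by 0.96 in log2, and GSTA4, a transferase for lipid aldehydes, rose by 0.74 (adjusted p = 4.38e-09 and 1.23e-06, edgeR).

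Of 21 tested thioredoxin and peroxide enzymes, 12 fell (57.1%, beside 25.6% of all tested genes), 5 rose (23.8%, beside 25.9%) and 4 did not pass (median -0.22). The mitochondrial superoxide dismutase gene SOD2 rose from 80.1 ± 4.69 to 158.6 ± 7.71 CPM (log2 fold change 0.99, adjusted p = 6.17e-09, edgeR), whereas the cytosolic SOD1 fell from 122.4 ± 3.15 to 67.1 ± 1.70 CPM (-0.87, adjusted p = 3.24e-08). SESN1, a sestrin, fell by 1.31 in log2 (adjusted p = 4.83e-07, edgeR). Its relatives, named after their values were seen, differed in direction: SESN2 was higher (log2 fold change 0.92) and SESN3 was lower (-0.24). PRDX1 and TXN, given above, belonged to the falls, on the same side as TXNRD1.

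NADPH is the cofactor of the AKR1C enzymes, NQO1 and TXNRD1. Of 18 genes listed around its supply, not all of which encode enzymes that make it, 5 rose, 10 fell and 3 did not pass (median -0.52). The 27.8% that rose were close to the 25.9% of all tested genes, and 55.6% fell, beside 25.6%. MTHFD1, of the folate cycle, fell from 249.3 ± 3.44 to 114.2 ± 2.30 CPM (log2 fold change -1.13, adjusted p = 2.19e-10, edgeR), RPE, an epimerase of the pentose phosphate pathway, fell by 1.37 in log2 (adjusted p = 1.87e-09) and the mitochondrial isocitrate dehydrogenase gene IDH2 fell by 1.25 (adjusted p = 4.71e-09). ME1, given above, belonged to the rises.

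Of 24 tested relatives of the AKR1C enzymes in carbonyl and steroid metabolism, 8 rose, 8 fell and 8 did not pass (median -0.18). The share of 33.3% in each direction was near that of all tested genes (25.9% higher and 25.6% lower). AKR1B1, aldose reductase, fell from 143.5 ± 7.16 to 79.7 ± 2.43 CPM (log2 fold change -0.85, adjusted p = 3.78e-08, edgeR). SRD5A1, the steroid reductase that makes substrates for the AKR1C enzymes, fell from 77.3 ± 2.92 to 22.8 ± 4.02 CPM (-1.76, adjusted p = 3.46e-10), and STS, steroid sulfatase, rose from 7.40 ± 0.646 to 28.5 ± 1.48 CPM (1.94, adjusted p = 4.56e-09). HSD17B10, a mitochondrial hydroxysteroid dehydrogenase, rose by 0.90 in log2 (adjusted p = 1.11e-06, edgeR). Thus 3 AKR1C genes were higher while AKR1B1 was lower and AKR1E2 lay at the same level within its error.

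Among 23 haem and iron genes, 10 rose, 10 fell (43.5% each, beside 25.9% and 25.6% of all tested genes) and 3 did not pass (median -0.07), and 6 rose without shControl replicate 2. The ferritin genes and HMOX1 were higher, while 2 enzymes of haem synthesis fell: FECH, ferrochelatase, from 53.8 ± 1.51 to 17.2 ± 0.618 CPM (log2 fold change -1.65, adjusted p = 6.41e-10, edgeR) and CPOX, coproporphyrinogen oxidase, by 1.58 in log2 (adjusted p = 4.62e-08). IREB2, an iron regulatory protein that restrains ferritin translation, fell by 0.92 in log2 (adjusted p = 3.61e-09, edgeR). In the list for cystine supply and ferroptosis, 6 of 11 tested genes rose (54.5%, beside 25.9% of all), 1 fell (9.09%, beside 25.6%) and 4 did not pass (median 0.32), and 2 fell without shIGF2BP3 replicate 1 or without shControl replicate 2. ACSL4, which loads membranes with polyunsaturated lipids, rose by 0.69 and SLC3A2, the partner of SLC7A11, by 0.46, CBS, which makes cystathionine on the way to cysteine, rose by 0.41, and GCH1, which starts tetrahydrobiopterin synthesis, fell by 0.71 in log2 (adjusted p = 5.09e-07, 5.78e-05, 0.000205 and 2.40e-06, edgeR).

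**Figure D5:**
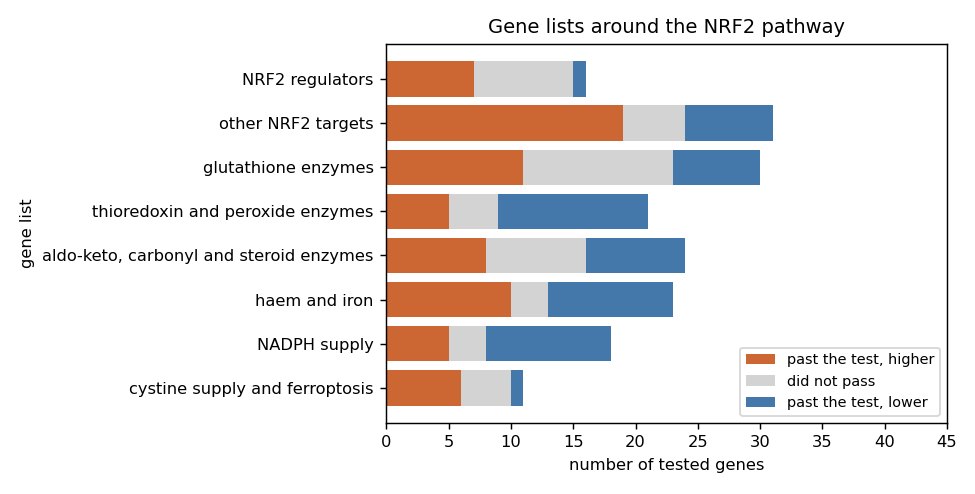
Number of tested genes in each of the 8 lists around the NRF2 pathway that passed the test higher, passed it lower or did not pass, in edgeR. The further NRF2 targets have 19 higher and 7 lower, and NADPH supply has 5 higher and 10 lower.

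The libraries kept the profile of the labelled cells, and some markers differed between the groups. All 12 adrenergic neuroblastoma markers were tested, of which 2 rose (16.7%, beside 25.9% of all tested genes) and 8 fell (66.7%, beside 25.6%), with a summed level of 3755 and 3843 CPM in shControl and 2731 and 2524 CPM in shIGF2BP3. Of 7 Schwann cell and glia markers, SOX10 was at 0 in all libraries and 6 were tested, with 2 rises and 1 fall. Their sum went from 16.1 and 16.3 to 81.9 and 73.4 CPM, mostly through NGFR, the low-affinity neurotrophin receptor, which went from 10.4 and 10.1 to 72.7 and 64.0 CPM. The 8 fibroblast markers were all tested, with 4 rises and 1 fall, and summed to 830.7 and 864.7 CPM in shControl and 1053 and 1037 CPM in shIGF2BP3. Leukocyte markers, 3 of 8 tested with 1 rise and 1 fall, summed to at most 6.32 CPM with CD3E and LYZ at 0, and endothelial markers, 1 of 5 tested with no call, to at most 3.8 CPM with PECAM1 and KDR at 0. Epithelial markers, 4 of 6 tested with 2 falls, summed to 14.9 and 11.4 CPM in shControl and 8.58 and 6.82 CPM in shIGF2BP3. The part of these marker differences in the values of the AKR1C genes and the other targets was not tested, and in bulk RNA fewer cells of a kind and less RNA per cell cannot be told apart.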

How the data were processed

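RNA of 4 SK-N-BE(2) libraries was sequenced. The deposited table holds raw read counts per Ensembl gene; per the submitters' processing notes, HISAT2 2.2.0, StringTie and hg38 were used, and per the labels' protocols the libraries were made from total RNA with a TruSeq kit. No source used here gives the counting rule or the strand setting. Of 64252 identifiers, 56105 took a symbol from a gene name table and 486 from GENCODE 29; the 7661 others held 1.6% to 1.8% of the counts and stayed in the fit.

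Genes were filtered with filterByExpr (smallest count 10), scaled by TMM and tested with edgeR 4.0.16 (quasi-likelihood, robust) over all 4 libraries, with Benjamini-Hochberg adjustment over 19767 genes and a threshold of 0.05, after tests on simulated data. The biological coefficient of variation was 12.62%, with 2 residual degrees of freedom. Standard errors are the fold change divided by the square root of the F statistic. Counts differed beyond sampling noise within groups (chi-square per degree of freedom 7.04 in shIGF2BP3 and 8.34 in shControl), so the libraries were kept as separate replicates.

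The 10 genes and all lists were chosen with earlier results of these data known. Named were IGF2BP3, the 10 genes, NFE2L2, KEAP1, BACH1, AKR1C4, AKR1E2, the 4 tested genes of smallest p in each list and the 3 genes most like AKR1C1; names outside this rule are given as chosen after their values were seen, or, like CUL3, RBX1, MAFF, MAFG, MAFK and NGFR, were also chosen so. Of 235 listed symbols, GSTT1 had no row. Alternatives were RLE scaling, library size only, no filter, DESeq2 1.42.0, limma voom 3.58.1, a replicate block, each library left out, the AKR1C genes summed and rows of 1 symbol summed; the older edgeR fit was added after seeing the data. Coding sequences were aligned with Biopython 1.88. The values of 1 gene of the further target list are not reported here.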

Additional observations from a re-analysis of the deposited data

How the results depend on the processing

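The median log2 fold change of the 10 genes, 0.42 as reported, was 0.50 when libraries were scaled by size only and ranged from 0.27 (without shControl replicate 1) to 0.59 (without shControl replicate 2) when 1 library was left out. Under size scaling the median over all genes was 0.0897 instead of 0.0094, and NQO1 passed at 0.19. The number of genes past the test, 10178, was 8800 to 9442 with 1 library left out, 8869 with DESeq2, 8757 without the filter and 9894 with the older edgeR fit. Same-numbered libraries deviated from their group means with a correlation of 0.0033, with only 2 pairs, and the numbers were taken to name libraries only; with the replicate block, 10509 genes passed, and 18 further NRF2 targets were higher and 8 lower. AKR1C1, AKR1C2, AKR1C3, OSGIN1 and TXNRD1 kept their calls in all 12 alternatives that left these rows separate, HMOX1 in 11 and GCLM in 7, while SRXN1 passed in 3 and GCLC in 0. Over 828 alternative values of the regulators, further targets and other genes named by rule, 24 calls were lost, 7 were gained and 0 were reversed. MAFF lost its call with DESeq2, the older fit, no filter and without shControl replicate 1 or either shIGF2BP3 library, PIR with size scaling, without shControl replicate 1 or either shIGF2BP3 library, TALDO1 without shIGF2BP3 replicate 2, and MGST1 with DESeq2. The causes were not tested. Genes with a like difference could pass or not: SRXN1, at 0.28 with SE 0.12, did not pass, and GCLM, at -0.29 with SE 0.09, did.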

Other observations

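SCRT2, one of the 3 genes with the profile most like that of AKR1C1, lies beside SRXN1 on chromosome 20 (SCRT2 at chr20:661596-676179 and SRXN1 at chr20:646615-653370, both on the minus strand, GENCODE 29 on GRCh38). SCRT2 stood at 12.0 and 11.4 CPM in shControl and 73.6 and 71.5 CPM in shIGF2BP3, a log2 fold change of 2.64, against 0.28 for SRXN1.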
